A study of Mus musculus with 2 samples.

Results

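The axon and cell guidance genes of the ephrin, semaphorin, Slit and netrin systems were examined in trunk tissue of E8.5 mouse embryos that lack retinoic acid (RA) synthesis. Members were all genes of the deposited table whose symbol belongs to the ephrins (Efna, Efnb), Eph receptors (Epha, Ephb), semaphorins (Sema3 to Sema7), plexins (Plxna to Plxnd), neuropilins (Nrp1, Nrp2), Slits, Robos, netrins (Ntn) or Unc5 receptors, which gave 69 of 24340 genes. Of these, 68 are guidance genes, with 35 ligands and 33 receptors, and 1 is an antisense transcript of Plxna4, Plxna4os1, listed at 0 in both samples. RNA-seq was performed on 1 Aldh1a2-/- sample and 1 wild-type sample of trunk tissue at E8.5. The Aldh1a2-/- embryos, bred from heterozygous parents, carry a knockout of Aldh1a2, also called Raldh2, in all tissues. Dissection left the somite-bearing trunk, without the heart, the head or the tail end. The labels list 1 sample of each genotype, while the study's methods describe 2 trunks of each, and whether these were pooled is not stated. As there is a single library of each genotype, the differences have no replicate check, no test was run, and the values compare these 2 libraries only.

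Guidance ligands and their receptors steer migrating cells and growing axons and hold neighbouring tissues apart by attraction or repulsion. Ephrins are tethered to the cell surface and signal through Eph receptor tyrosine kinases, and both partners can signal into their own cell. Semaphorins act through plexins, which control small GTPases, and most secreted class 3 semaphorins first bind a neuropilin. Slits are secreted repellents read by Robo receptors, and netrins attract through Dcc or repel through Unc5 receptors. In the trunk these systems are known for guiding neural crest through the somites, for setting somite boundaries, for patterning vessels, and for guiding axons at the floor plate. RA acts through nuclear receptors that bind RA response elements (RAREs), in which a hexamer is repeated in the same direction with a spacer of 1, 2 or 5 bases (DR1, DR2, DR5).

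The study lists RAREs within chromatin regions whose histone marks differed between the genotypes, and 5 of them are listed with a guidance gene. They are shown because they are the candidate RA response sequences that the study lists beside these genes. For Epha2, Robo2 and Unc5a the guidance gene is given as the nearest one, whereas the other 2 elements are listed under Stx8 and Fgf8, with Ntn1 and Sema4g as further genes of the same topological domain. The repeated hexamers are in capitals and the spacer is in lower case, and the strand is not given in the source.
Epha2 DR1, chr4:141300510-141300522: GAGGCAgAGGTCA
Ntn1 DR1, chr11:68051350-68051362: AGTTCAgAGTTCA
Robo2 DR1, chr16:74398869-74398881: GTGGCAaAGGTCA
Sema4g DR2, chr19:45747043-45747056: GGGTCAgcAGTTCA
Unc5a DR1, chr13:54993593-54993605: GGGTTAgAGTTCA
On mm10, the Epha2 element lies 724 bases upstream of the Epha2 start and within no protein-coding gene. The Robo2 and Unc5a elements are in introns of these genes, 12.9 and 44.2 kb from the start. The start of Hk3, at 27.8 kb, is nearer to the Unc5a element than that of Unc5a. The Ntn1 element is inside Stx8, 349.5 kb from the Ntn1 start, and the Sema4g element is 757.9 kb from Sema4g, so neither is in or next to the guidance gene. Of the 5 genes, only Ntn1 and Robo2 were measured and below the lower cutoff in Aldh1a2-/- trunk, Sema4g was above the upper cutoff, Epha2 was listed at 0 in wild type and Unc5a was at or under 0.5 FPKM in both samples.

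The promoters of 3 receptors and ligands with higher levels in Aldh1a2-/- trunk are shown, namely of Unc5b, which has the highest ratio of the measured members, and of Plxnd1 and Sema5a, the only 2 of the 9 higher members with the RAR-type hexamer AGGTCA (either strand) in the promoter. Each is the run of 250 bases before the RefSeq start site on GRCm38.p6, written along the strand of the gene, with the hexamer or its reverse complement TGACCT in capitals.
Unc5b, chr10:60831582-60831831, minus strand: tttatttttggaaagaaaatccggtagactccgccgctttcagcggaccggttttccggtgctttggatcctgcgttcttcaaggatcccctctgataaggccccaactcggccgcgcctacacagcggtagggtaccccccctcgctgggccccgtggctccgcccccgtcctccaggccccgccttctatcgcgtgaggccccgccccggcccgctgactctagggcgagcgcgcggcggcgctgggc
Plxnd1, chr6:115995006-115995255, minus strand: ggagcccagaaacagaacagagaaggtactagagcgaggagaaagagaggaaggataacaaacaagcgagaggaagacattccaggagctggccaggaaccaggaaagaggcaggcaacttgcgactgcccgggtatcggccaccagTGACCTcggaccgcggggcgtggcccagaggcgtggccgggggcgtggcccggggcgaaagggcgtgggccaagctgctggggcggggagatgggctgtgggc
Sema5a, chr15:32244563-32244812, plus strand: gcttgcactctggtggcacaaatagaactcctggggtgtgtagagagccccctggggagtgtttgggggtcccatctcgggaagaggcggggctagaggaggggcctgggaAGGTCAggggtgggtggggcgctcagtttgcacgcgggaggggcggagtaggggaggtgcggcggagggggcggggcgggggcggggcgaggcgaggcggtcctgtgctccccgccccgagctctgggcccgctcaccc
The 3 promoters are 66.8% GC in Unc5b, 64.8% in Plxnd1 and 72.0% in Sema5a. RefSeq promoters, which also include 50 bases after the start, could be matched for 59 of the 69 members, and 11 of them (18.6%) hold AGGTCA on either strand, beside 4900 of 27025 promoters of all genes (18.1%). The hexamer was in 0 of the 6 matched promoters of lower members and in 4 of the 14 matched promoters of members within the cutoffs. A DR1, DR2 or DR5 repeat of exact hexamers (A or G, then G, then G or T, then TCA) was in 0 member promoters and in 186 of all promoters (0.688%). The study's list allows mismatches, and the elements printed above for Epha2, Robo2 and Unc5a would not meet this stricter rule. A match is a description of the letters and not a binding site. The study also lists Unc5b and Efna1 beside regions whose repressive histone mark differed between the genotypes, without a RARE in them.

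Aldh1a2 itself, the enzyme that makes RA in trunk mesoderm, was at 11.7 FPKM in the Aldh1a2-/- sample and 128 FPKM in the wild-type sample, in the direction of the labels. The FPKM step of a single fragment, read from 11 genes per library, corresponded to about 29200000 fragments in Aldh1a2-/- and 28200000 in wild type. The step was sought only within a preset window, which bounds the result, so these values are rough and cannot show that depth was equal. Of the head genes, whose tissue was removed, Otx2, Six3 and En2 were listed at 0 in both samples, and Emx2, the only one above 0.5 FPKM, was at 1.75 FPKM in Aldh1a2-/- and 7.04 FPKM in wild type. The heart muscle genes summed to 40.1 FPKM in Aldh1a2-/- and 18.1 FPKM in wild type, led by Tnnt2 (29.8 FPKM in Aldh1a2-/-, 8.82 FPKM in wild type). Actc1 went the other way (0.0531 FPKM in Aldh1a2-/-, 6.13 FPKM in wild type), and Nkx2-5 and Nppa were listed at 0 in both. Tissue markers differed between the libraries. The primitive red blood cell markers summed to 5851 FPKM in Aldh1a2-/- and 299 FPKM in wild type, with 5 of 5 measured genes above the upper cutoff, led by Hba-x (3592 FPKM in Aldh1a2-/-, 131 FPKM in wild type) and Hbb-bh1 (1876 FPKM in Aldh1a2-/-, 110 FPKM in wild type). The 14 endothelial markers summed to 149 FPKM in Aldh1a2-/- and 119 FPKM in wild type, with 7 of 11 measured markers above the upper cutoff, although the 2 most abundant, Egfl7 (30.2 FPKM in Aldh1a2-/-, 50.1 FPKM in wild type) and Kdr (19.5 FPKM in Aldh1a2-/-, 22.5 FPKM in wild type), had lower values in Aldh1a2-/- and Emcn and Esam were listed at 0 there. The 10 yolk sac visceral endoderm markers summed to 5248 FPKM in Aldh1a2-/- and 427 FPKM in wild type, led by Apoa1 (1520 FPKM in Aldh1a2-/-, 146 FPKM in wild type) and Afp (1122 FPKM in Aldh1a2-/-, 51.7 FPKM in wild type). The 11 somite markers summed to 61.4 FPKM in Aldh1a2-/- and 350 FPKM in wild type, led by Tcf15 (9.35 FPKM in Aldh1a2-/-, 154 FPKM in wild type) and Meox1 (28.6 FPKM in Aldh1a2-/-, 106 FPKM in wild type). The 8 neural crest markers summed to 21.7 FPKM in Aldh1a2-/- and 37.7 FPKM in wild type, led by Ets1 (8.38 FPKM in Aldh1a2-/-, 20.4 FPKM in wild type) and Snai2 (7.13 FPKM in Aldh1a2-/-, 9.03 FPKM in wild type), and Foxd3, Sox10 and Tfap2b were listed at 0 in Aldh1a2-/-. Fewer cells of a type and less RNA per cell cannot be told apart in such bulk tissue, and the part of these tissue differences in the values of the guidance genes was not tested.

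Expression was compared with the study's settings, in which a gene is measured when it is above 0.5 FPKM (a fragment count divided by transcript length and library size) in both samples, and is past the cutoff when its log2 ratio, with Aldh1a2-/- over wild type, is above 0.85 or below -0.85. Values in parentheses after a pair of FPKM levels are log2 ratios. Of the 69 members, 42 were above 0.5 FPKM in Aldh1a2-/- and 47 in wild type, 52 in either sample and 37 in both. Among the 37 measured members, 9 were higher in Aldh1a2-/- past the cutoff (24.3%, beside 23.6% of all 9506 measured genes) and 11 were lower (29.7%, beside 22.0% of all). In either direction 20 were past the cutoff (54.1%, beside 45.6% of all). The median log2 ratio was 0.10 for the members and 0.02 for all measured genes. As a group the members were therefore near the background in the share of higher genes and some points above it in the share of lower genes.

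Genes with expression in 1 genotype only were counted apart. Of the 47 members above 0.5 FPKM in wild type, 10 were at or under 0.5 FPKM in Aldh1a2-/- (21.3%, beside 16.4% of all genes so expressed), and 7 of them were listed at exactly 0 (14.9%, beside 12.9%). These 7 were Efna2, Epha7, Epha8, Ephb1, Sema3a, Sema3g and Plxnc1. Of the 42 members above 0.5 FPKM in Aldh1a2-/-, 5 were at or under 0.5 FPKM in wild type (11.9%, beside 9.33%), and 2 of them, Epha2 and Sema4a, were listed at 0 (4.8%, beside 6.14%). A value of exactly 0 may also be a failed estimate, since of 36 NADH dehydrogenase subunit genes, which all cells use, 2 had a 0 in 1 sample with over 1 FPKM in its counterpart. No fold is given against 0. The summed level of all members was nearly the same, at 466 FPKM in Aldh1a2-/- and 459 FPKM in wild type.

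**Figure D1:**
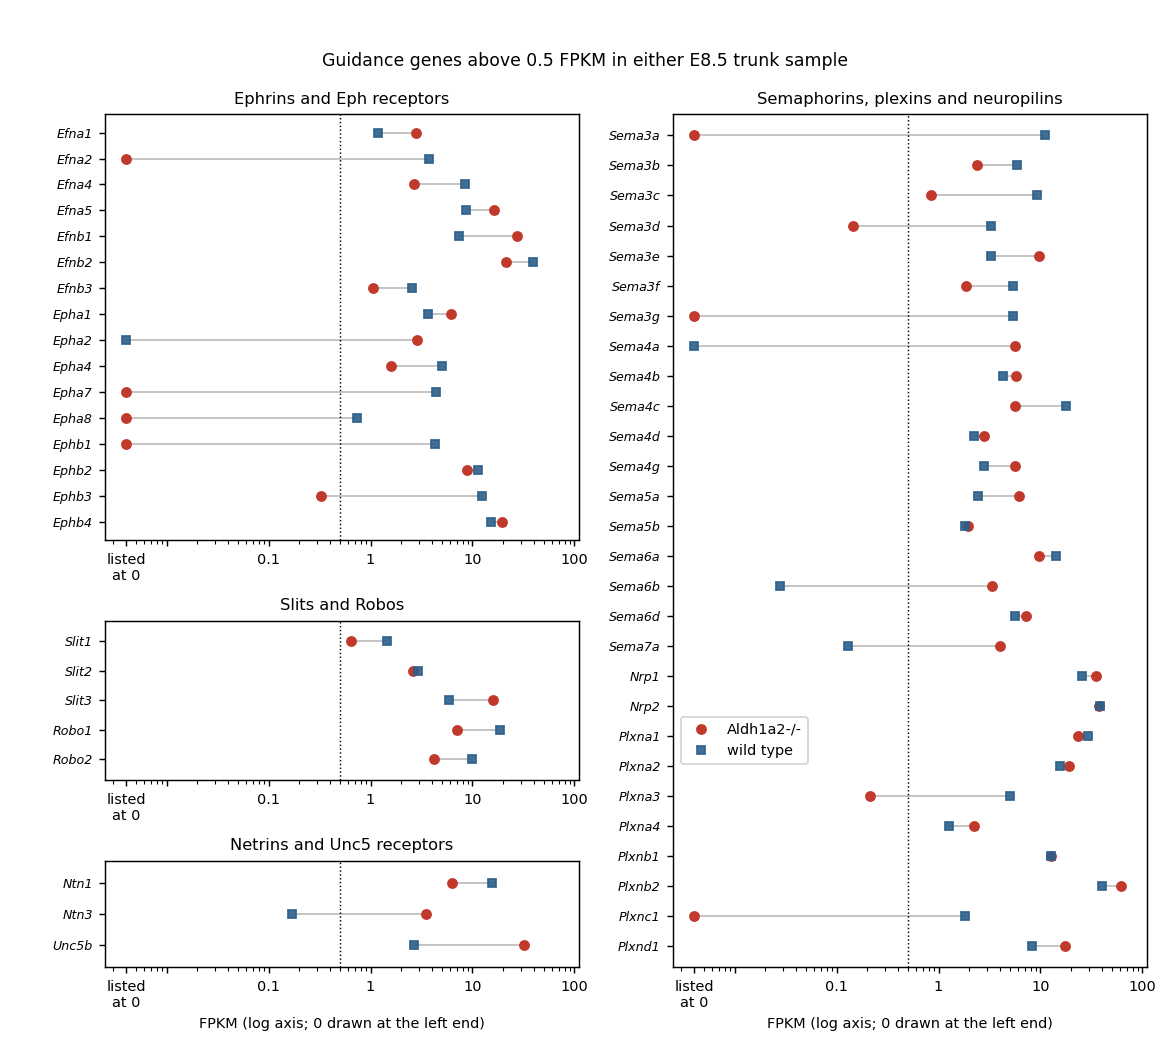
FPKM on a log axis of each of the 52 guidance genes above 0.5 FPKM in either sample, with circles for the Aldh1a2-/- trunk sample, squares for the wild-type trunk sample (1 each) and a dotted line at 0.5 FPKM. Unc5b is at 32.0 FPKM in Aldh1a2-/- and 2.68 FPKM in wild type, Sema3a is listed at 0 in Aldh1a2-/- and at 11.2 FPKM in wild type, and Nrp2 and Plxnb1 nearly coincide.

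The ephrin ligands divided by gene. The B-class ephrins are transmembrane ligands. Efnb1, which in mouse is needed for sorting cells at tissue boundaries, was at 27.6 FPKM in Aldh1a2-/- and 7.41 FPKM in wild type, a log2 ratio of 1.90 with a 95% interval for counting error alone of 1.78 to 2.02. Efnb2, the ligand of arterial endothelium and of the caudal part of each somite, was at 21.6 FPKM in Aldh1a2-/- and 38.8 FPKM in wild type, a log2 ratio of -0.85 that lies just inside the cutoff. Efnb3, a midline ligand of the neural tube, was at 1.07 FPKM in Aldh1a2-/- and 2.56 FPKM in wild type (-1.26). Because these genes went in opposite directions, the B-class ephrins summed to 50.2 FPKM in Aldh1a2-/- and 48.8 FPKM in wild type. The intervals quoted here and below cover counting error only and say nothing of the difference between embryos.

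The A-class ephrins are anchored to the membrane by a lipid and also divided. Efna5 was the most abundant in Aldh1a2-/- and close to Efna4 in wild type, at 16.2 FPKM in Aldh1a2-/- and 8.65 FPKM in wild type (0.90, interval 0.79 to 1.01), which is just outside the cutoff. Efna1 was at 2.79 FPKM in Aldh1a2-/- and 1.19 FPKM in wild type (1.23). On the other side, Efna4 was at 2.69 FPKM in Aldh1a2-/- and 8.36 FPKM in wild type (-1.64), where its exons overlap 4731419I09Rik on the opposite strand. Efna2 was listed at 0 in Aldh1a2-/- and at 3.78 FPKM in wild type, and Efna3 was listed at 0 in both. The A class as a whole summed to 21.6 FPKM in Aldh1a2-/- and 22.0 FPKM in wild type, again with little net difference. Of the 6 measured ephrins, 3 were higher, 2 were lower and 1 was within the cutoffs, beside 23.6% higher and 22.0% lower of all measured genes.

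The Eph receptors showed fewer measured members and more that were present in 1 genotype only. Of the 14 Eph receptor genes 4 were measured, with 0 higher and 1 lower past the cutoff, beside 23.6% and 22.0% of all measured genes. The 14 genes summed to 39.4 FPKM in Aldh1a2-/- and 57.4 FPKM in wild type. Without genes listed at 0 in either sample, EphA summed to 7.89 FPKM in Aldh1a2-/- and 8.99 FPKM in wild type (-0.19). EphB so counted summed to 28.7 FPKM in Aldh1a2-/- and 39.0 FPKM in wild type (-0.44). This alternative was chosen after seeing the data. Epha4, a receptor for both ephrin classes that is known for somite boundary formation, was at 1.58 FPKM in Aldh1a2-/- and 5.02 FPKM in wild type (-1.67, interval -1.87 to -1.48). Ephb3 was at 0.328 FPKM in Aldh1a2-/-, about 45 fragments, and 12.5 FPKM in wild type, about 1673 fragments, which made it the second EphB receptor of the wild-type sample. Epha7 was listed at 0 in Aldh1a2-/- and at 4.40 FPKM in wild type. Ephb1 likewise was listed at 0 in Aldh1a2-/- and at 4.26 FPKM in wild type. Epha8 was listed at 0 in Aldh1a2-/- and at 0.741 FPKM in wild type. Thus 5 Eph receptors had the lower value in Aldh1a2-/- beyond the floor or the cutoff. Of these, 3 were listed at 0, which may be a failed estimate. Of the 8 Eph receptors above 0.5 FPKM in wild type, 4 were under the floor in Aldh1a2-/-, beside 16.4% of all genes so expressed. Only Epha2, an epithelial receptor whose listed RARE is printed above, was present in Aldh1a2-/- alone, at 2.85 FPKM in Aldh1a2-/- and listed at 0 in wild type. The 8 surface and gut epithelium markers summed to 1137 FPKM in Aldh1a2-/- and 641 FPKM in wild type. They were led by Krt18 (503 FPKM in Aldh1a2-/-, 319 FPKM in wild type) and Krt8 (386 FPKM in Aldh1a2-/-, 213 FPKM in wild type). Past the upper cutoff were 5 of 8 genes, Krt18 not among them. Foxa1 (2.45 FPKM in Aldh1a2-/-, 13.9 FPKM in wild type) was below the lower cutoff, and Epcam (33.9 FPKM in Aldh1a2-/-, 40.8 FPKM in wild type) was lower within the cutoffs. The 10 yolk sac visceral endoderm markers also summed higher, at 5248 FPKM in Aldh1a2-/- and 427 FPKM in wild type. The part of either marker list in the Epha2 value was not tested.

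The 3 other measured Eph receptors were within the cutoffs. Ephb4, the venous endothelial receptor of ephrin-B2, was at 19.5 FPKM in Aldh1a2-/- and 15.2 FPKM in wild type (0.36) and was the most abundant Eph gene in both. Ephb2 was at 8.91 FPKM in Aldh1a2-/- and 11.4 FPKM in wild type (-0.35). Epha1, whose exons overlap Zyx on the opposite strand, was at 6.20 FPKM in Aldh1a2-/- and 3.64 FPKM in wild type (0.77). Epha3, Epha6, Epha10 and Ephb6 were listed at 0 in both samples, and Epha5 was at 0.108 FPKM in Aldh1a2-/- and 0.332 FPKM in wild type. The EphB receptors were therefore uneven, with Ephb4 and Ephb2 within the cutoffs while Ephb1 and Ephb3 were under the floor in Aldh1a2-/-.

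**Figure D2:**
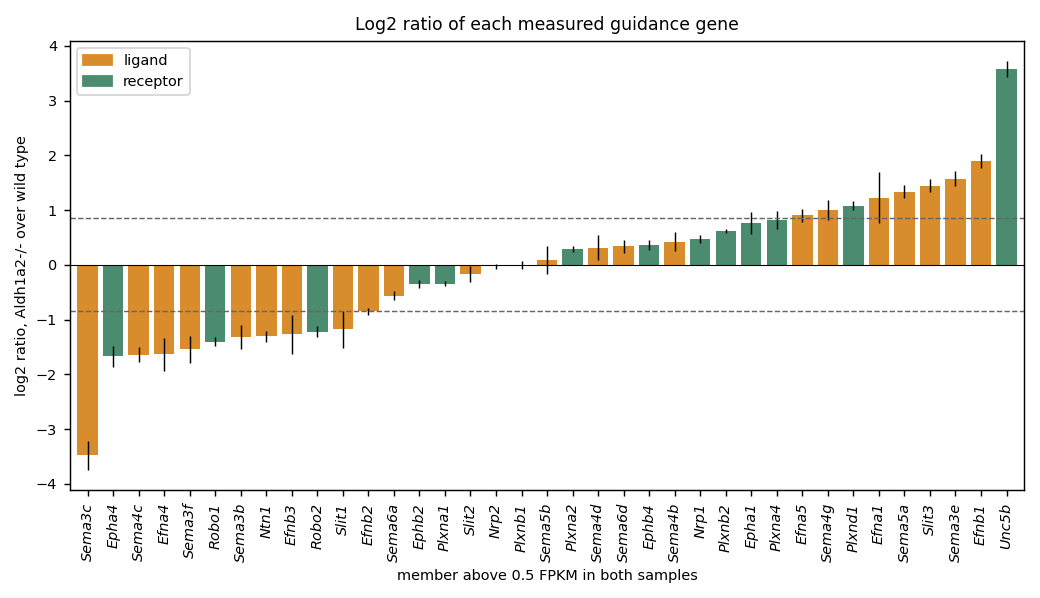
Log2 ratio of Aldh1a2-/- over wild-type FPKM for the 37 guidance genes above 0.5 FPKM in both trunk samples (1 sample per genotype), with bars for the 95% interval of counting error alone and dashed lines at the cutoffs of -0.85 and 0.85. The ratios run from -3.48 in Sema3c to 3.58 in Unc5b, with 9 genes above the upper cutoff and 11 below the lower.

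The secreted class 3 semaphorins include repellents of neural crest cells, motor axons and endothelial cells. The class summed to 15.0 FPKM in Aldh1a2-/- and 43.6 FPKM in wild type (log2 ratio of the sums -1.54). Without Sema3a and Sema3g, whose 0 in Aldh1a2-/- may be a failed estimate, the sums were 15.0 FPKM in Aldh1a2-/- and 27.1 FPKM in wild type (-0.86), an alternative chosen after seeing the data. Of the 7 genes, 6 had a lower FPKM in Aldh1a2-/- than in wild type, beside 6547 of all 12354 genes above 0.5 FPKM in either sample. Sema3a, the prototype repellent that signals through Nrp1, was listed at 0 in Aldh1a2-/- and was at 11.2 FPKM in wild type, about 1870 fragments. Sema3c, known in mouse for cardiac neural crest and outflow tract, was at 0.836 FPKM in Aldh1a2-/- and 9.32 FPKM in wild type, the lowest ratio of the measured members (-3.48, interval -3.74 to -3.22). Sema3g, an endothelial semaphorin that binds Nrp2, was listed at 0 in Aldh1a2-/- and at 5.35 FPKM in wild type. These genes accounted for most of the class in the wild-type sample.

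The remaining class 3 genes included the exception. Sema3d was at 0.145 FPKM in Aldh1a2-/- and 3.24 FPKM in wild type. Sema3f, a ligand of Nrp2 that in mouse keeps neural crest out of the caudal part of each somite, was at 1.85 FPKM in Aldh1a2-/- and 5.38 FPKM in wild type (-1.54). Sema3b was at 2.36 FPKM in Aldh1a2-/- and 5.88 FPKM in wild type (-1.31). Sema3e, which unlike the others binds Plxnd1 without a neuropilin and in mouse restrains intersomitic vessels, was at 9.76 FPKM in Aldh1a2-/- and 3.27 FPKM in wild type (1.58, interval 1.45 to 1.71). It was the most abundant class 3 semaphorin of the Aldh1a2-/- sample. Of the 11 somite markers, 8 had the lower level in Aldh1a2-/- and 2, Myf5 and Pax1, the higher. Of the 8 neural crest markers, 5 had the lower level in Aldh1a2-/- and 3 the higher, namely Erbb3, Ngfr and, by very little, Tfap2a. The part of these markers in the class 3 values was not tested.

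The membrane-bound semaphorins of classes 4 to 7 did not share this direction. Sema4c, a ligand of Plxnb2, was at 5.67 FPKM in Aldh1a2-/- and 17.7 FPKM in wild type (-1.64) and was the most abundant semaphorin of the wild-type sample. Sema4a was at 5.66 FPKM in Aldh1a2-/- and listed at 0 in wild type. Sema4g, listed as a further gene of the domain of the DR2 element near Fgf8, was at 5.63 FPKM in Aldh1a2-/- and 2.82 FPKM in wild type (1.00). Because Sema4a and Sema4g offset Sema4c, class 4 summed to 25.4 FPKM in Aldh1a2-/- and 27.0 FPKM in wild type. Sema4b (5.71 FPKM in Aldh1a2-/-, 4.26 FPKM in wild type, 0.42) and Sema4d, the ligand of Plxnb1 (2.76 FPKM in Aldh1a2-/-, 2.24 FPKM in wild type, 0.31), were within the cutoffs, and Sema4f was listed at 0 in both.

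Sema5a, a transmembrane protein with thrombospondin repeats, was at 6.18 FPKM in Aldh1a2-/- and 2.45 FPKM in wild type (1.34). Its relative Sema5b was at 1.93 FPKM in Aldh1a2-/- and 1.81 FPKM in wild type (0.10), so 1 of these class 5 genes was past the cutoff. In class 6, whose members bind A-class plexins, Sema6a was at 9.66 FPKM in Aldh1a2-/- and 14.3 FPKM in wild type (-0.56), while Sema6d was at 7.18 FPKM in Aldh1a2-/- and 5.67 FPKM in wild type (0.34). Both were within the cutoffs. Sema6b was at 3.36 FPKM in Aldh1a2-/-, about 366 fragments, and 0.0281 FPKM in wild type, about 3 fragments. Sema7a, a lipid-anchored semaphorin, was at 4.03 FPKM in Aldh1a2-/-, about 388 fragments, and 0.129 FPKM in wild type, about 12 fragments. Sema6c was listed at 0 in Aldh1a2-/- and at 0.146 FPKM in wild type.

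Past a cutoff were 1 of 8 measured semaphorin receptors and 7 of 12 measured semaphorins, beside 45.6% of all measured genes and 34.2% of those with a mean above 15 FPKM, where most of these receptors lie. The difference between receptors and ligands was not tested, and Plxna3 and Plxnc1, under the floor in Aldh1a2-/-, are not among the 8. Among the 8 measured of 11 plexins and neuropilins, 1 was higher, 0 were lower and the median log2 ratio was 0.38. Plxnb2 was the most abundant member of all in both samples, at 61.5 FPKM in Aldh1a2-/- and 40.1 FPKM in wild type (0.62). Nrp1, co-receptor of Sema3a and of VEGF, was at 35.5 FPKM in Aldh1a2-/- and 25.7 FPKM in wild type (0.47). Nrp2 was at 37.6 FPKM in Aldh1a2-/- and 38.3 FPKM in wild type (-0.02). The neuropilins thus stayed within the cutoffs while their class 3 ligands were mostly lower.

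Plxnd1, the endothelial receptor of Sema3e, was the 1 gene of this receptor set past the cutoff, at 17.5 FPKM in Aldh1a2-/- and 8.28 FPKM in wild type (1.08, interval 1.00 to 1.17). The ligand Sema3e and the receptor Plxnd1 were therefore both higher in the same sample. Of the 14 endothelial markers 10 had the higher level in Aldh1a2-/- and 4 (Egfl7, Kdr, Emcn and Esam) the lower, with 7 of 11 measured markers past the upper cutoff and a median of 1.28, and their part in the Plxnd1 value was not tested. Plxna1 (23.3 FPKM in Aldh1a2-/-, 29.6 FPKM in wild type, -0.35) and Plxna2 (19.0 FPKM in Aldh1a2-/-, 15.5 FPKM in wild type, 0.30), receptors of class 3 and class 6 ligands, were within the cutoffs. Plxna4 was at 2.23 FPKM in Aldh1a2-/- and 1.27 FPKM in wild type (0.82), and its exons overlap an antisense transcript, Plxna4os3. Plxnb1 had the same level in both samples, at 12.6 FPKM in each. The exceptions were Plxna3, at 0.211 FPKM in Aldh1a2-/- and 5.03 FPKM in wild type, and Plxnc1, the receptor of Sema7a, listed at 0 in Aldh1a2-/- and at 1.83 FPKM in wild type. Exons of Plxnc1 overlap Gm48718 on the same strand, so its value is uncertain. Plxnb3 was listed at 0 in both.

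Slit3 was above the upper cutoff while Slit1, Robo1 and Robo2 were below the lower. Slit3, the most abundant Slit in both samples, was at 15.9 FPKM in Aldh1a2-/- and 5.82 FPKM in wild type (1.45, interval 1.33 to 1.56). Slit2 was at 2.62 FPKM in Aldh1a2-/- and 2.94 FPKM in wild type (-0.17). Slit1 was at 0.645 FPKM in Aldh1a2-/- and 1.46 FPKM in wild type (-1.18). Together the Slits summed to 19.1 FPKM in Aldh1a2-/- and 10.2 FPKM in wild type, a sum carried by Slit3. The measured receptors were both below the lower cutoff. Robo1, the most abundant Robo, was at 7.09 FPKM in Aldh1a2-/- and 18.8 FPKM in wild type (-1.40, interval -1.49 to -1.32). Robo2, which has the intronic DR1 printed above, was at 4.20 FPKM in Aldh1a2-/- and 9.80 FPKM in wild type (-1.22). The Robo genes summed to 11.3 FPKM in Aldh1a2-/- and 28.6 FPKM in wild type. Robo3 was listed at 0 in both, and the endothelial Robo4 was at 0.00865 FPKM in Aldh1a2-/- and listed at 0 in wild type, although endothelial markers were present in both samples. The 10 neural tube markers, led by Irx3 (26.2 FPKM in Aldh1a2-/-, 19.7 FPKM in wild type) and Nkx1-2 (22.8 FPKM in Aldh1a2-/-, 7.75 FPKM in wild type), summed to 78.2 FPKM in Aldh1a2-/- and 96.4 FPKM in wild type, with 1 of 7 measured genes higher and 3 lower past the cutoff. The lower genes were Pax6 (1.76 FPKM in Aldh1a2-/-, 14.3 FPKM in wild type), Pax3 (7.41 FPKM in Aldh1a2-/-, 18.1 FPKM in wild type) and Sox2 (10.9 FPKM in Aldh1a2-/-, 19.8 FPKM in wild type), while Olig2 and Nkx6-1 were listed at 0 in Aldh1a2-/-. These markers were named after their values were seen, and their part in the Robo values was not tested.

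The netrin system held the highest ratio. Unc5b, a repulsive netrin receptor also found on endothelial tip cells, was at 32.0 FPKM in Aldh1a2-/- and 2.68 FPKM in wild type, a 12.0-fold difference (log2 3.58, interval 3.44 to 3.72) from about 5489 fragments in Aldh1a2-/- and 443 in wild type. Among the members only Plxnb2, Nrp2 and Nrp1 had a higher FPKM in the Aldh1a2-/- sample. The measured endothelial markers had a median log2 ratio of 1.28, those of yolk sac visceral endoderm 3.28 and those of primitive red blood cells 4.09. The somite markers were at -1.89. The part of any of these tissues in the Unc5b value was not tested. Ntn1, the main netrin of the floor plate, was at 6.34 FPKM in Aldh1a2-/- and 15.7 FPKM in wild type (-1.30, interval -1.41 to -1.20). The ligand and this receptor thus had opposite signs. The floor plate and notochord markers summed to 79.5 FPKM in Aldh1a2-/- and 74.5 FPKM in wild type, led by Sulf1 (11.4 FPKM in Aldh1a2-/-, 21.2 FPKM in wild type) and T (21.0 FPKM in Aldh1a2-/-, 17.7 FPKM in wild type). Of the 10 genes, 5 had the higher and 2 the lower level in Aldh1a2-/- and 3 were listed at 0 in both, and their part in the Ntn1 value was not tested. Ntn3 was at 3.52 FPKM in Aldh1a2-/- and 0.169 FPKM in wild type, but its exons overlap Tbc1d24 on the same strand, so its value is uncertain. Ntn4, Ntn5 and Unc5d were listed at 0 in both samples. Unc5a was listed at 0 in Aldh1a2-/- and at 0.228 FPKM in wild type, and Unc5c was at 0.402 FPKM in Aldh1a2-/- and 0.444 FPKM in wild type, so Unc5b was the only Unc5 gene above the floor.

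**Figure D3:**
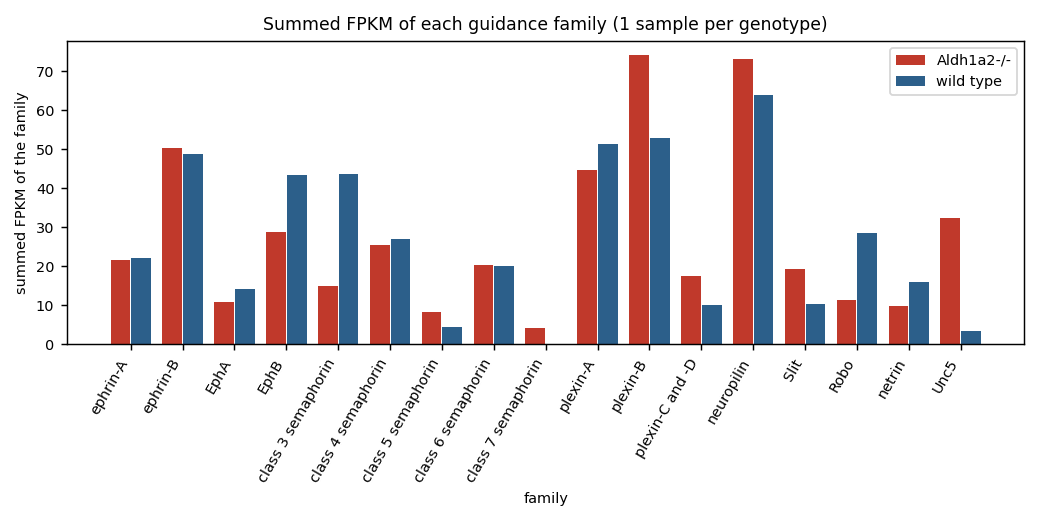
Summed FPKM of each guidance gene family in the Aldh1a2-/- and wild-type trunk samples (1 sample each), on a linear axis from 0. The class 3 semaphorins sum to 15.0 FPKM in Aldh1a2-/- and 43.6 FPKM in wild type and the Robos to 11.3 FPKM in Aldh1a2-/- and 28.6 FPKM in wild type, whereas the Unc5 genes sum to 32.4 FPKM in Aldh1a2-/- and 3.35 FPKM in wild type.

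The members were also counted by role over all families. Of 22 measured ligands, 7 were higher, 8 were lower and 7 were within, with a median of -0.04, beside 23.6% higher and 22.0% lower of all measured genes. Of 15 measured receptors, 2 were higher, 3 were lower and 10 were within, with a median of 0.30, and the difference between the roles was not tested. In the whole table, genes of low level were more often past the cutoff. Among all genes with a mean of 0.5 to 5 FPKM, 60.8% were past the cutoff, against 8 of 14 members (57.1%). At 5 to 15 FPKM the share was 55.6% of all genes, against 10 of 14 members (71.4%). Above 15 FPKM it was 34.2% of all genes, against 2 of 9 members (22.2%), these being Unc5b and Efnb1. The members nearest the cutoffs were Epha1 at 0.77, Plxna4 at 0.82 and Efnb2 at -0.85 inside them, and Efna5 at 0.90 and Sema4g at 1.00 outside. Under at least 1 other setting of scale, pseudocount or cutoff, Efna1, Efna5, Efnb3, Sema4g and Slit1 were no longer past a cutoff, and Efnb2, Epha1 and Plxna4 were.

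**Figure D4:**
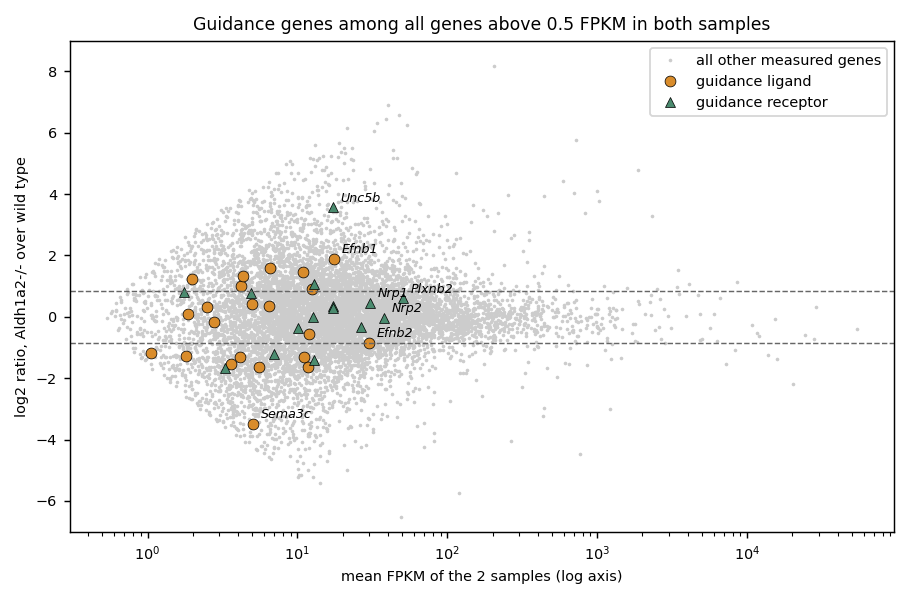
Log2 ratio (Aldh1a2-/- over wild type) against the mean FPKM of the 2 trunk samples (log axis) for all 9506 measured genes, with guidance ligands as circles, guidance receptors as triangles, other genes in grey and dashed lines at -0.85 and 0.85. Of the 9 guidance genes with a mean above 15 FPKM, Unc5b (3.58) and Efnb1 (1.90) lie above the upper line, Efnb2 lies almost on the lower line (-0.85) and the others lie between the lines.

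The other genes of these pathways were taken from a list of 93 co-receptors, further ligands and cytoplasmic effectors, 92 of which were in the table. Of 72 measured genes, 10 (13.9%) were higher and 19 (26.4%) were lower past the cutoff, beside 23.6% and 22.0% of all measured genes, and their median was -0.28. The table shows a 0 in Aldh1a2-/- for 8 of the 81 listed genes that passed 0.5 FPKM in wild type (9.88%, beside 12.9% of all genes), namely Acp1, Cntn1, Fes, Flrt2, Mical2, Pak3, Rgmb and Tmeff2, and the reverse held for Dscam and Rnd2. Rgma, a ligand of the netrin receptor Neo1, was at 4.81 FPKM in Aldh1a2-/- and 35.7 FPKM in wild type (-2.89). Draxin, a repellent that binds Dcc and netrin, was at 0.631 FPKM in Aldh1a2-/- and 6.78 FPKM in wild type (-3.43). Cdk5, a kinase of growth cones, was at 0.544 FPKM in Aldh1a2-/- and 5.84 FPKM in wild type (-3.42). Kalrn, a guanine nucleotide exchange factor downstream of EphB receptors, was at 1.01 FPKM in Aldh1a2-/- and 9.12 FPKM in wild type (-3.18). These are the largest ratios among genes of the list that reach 5 FPKM, and all had the lower level in Aldh1a2-/-.

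Dcc, the attractive netrin receptor, was under the floor, listed at 0 in Aldh1a2-/- and at 0.464 FPKM in wild type. Its relative Neo1 was at 12.0 FPKM in Aldh1a2-/- and 17.7 FPKM in wild type (-0.56), within the cutoffs. The Flrt genes encode ligands of Unc5 receptors. Flrt3 was at 3.42 FPKM in Aldh1a2-/- and 21.5 FPKM in wild type (-2.65). Flrt2 was listed at 0 in Aldh1a2-/- and at 5.45 FPKM in wild type, and Flrt1 was at 0.290 FPKM in Aldh1a2-/- and listed at 0 in wild type. Among the netrin and Flrt ligands, Ntn1, Flrt2 and Flrt3 were thus at a lower level in Aldh1a2-/-, where Unc5b was higher. Ntn3 (3.52 FPKM in Aldh1a2-/-, 0.169 FPKM in wild type, an uncertain value) and Flrt1, under the floor, went the other way.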

How the data were processed

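Trunk RNA of 1 Aldh1a2-/- and 1 wild-type E8.5 sample was sequenced as single reads. The authors deposited 1 table on mm10 with an FPKM per gene and sample, and the submitters' notes name STAR, Cufflinks and Cuffdiff without versions, while the study's methods name TopHat. The labels describe a total RNA kit and a poly(A) kit. The table's fold change, test statistic, p and q columns were not used, its status only for 1 alternative, and 1 line was emptied for this work. Each FPKM column belongs to 1 labelled sample, with 0 columns unused. Log2 ratios have no pseudocount. Coordinates, exon overlaps and transcript lengths are from GENCODE M21, promoters from RefSeq. Overlaps are named for some members only. Others also have them, among them Sema4c, Ephb1, Ephb4, Plxna1 and Plxnb1 on the opposite strand and Sema4a and Nrp1 on the same strand. Depth was estimated from FPKM steps of single-transcript genes within a preset window. Of the low values, 89.5% (Aldh1a2-/-) and 90.9% (wild type) fell within 0.15 of a whole fragment, but these include the values that gave the step. Counting intervals are 95% exact (Clopper-Pearson) and approximate, since fragments came from FPKM, depth and annotated length. The steps were tested on simulated data, for depth at a single value inside the preset window. Every member above 0.5 FPKM in either sample is named with its values, the others by symbol. Of the other pathway list, the 4 genes with the largest ratio among those reaching 5 FPKM are named, with Dcc, Neo1 and the Flrt genes, and of marker lists the 2 most abundant. Members and lists were chosen with earlier results of these data known. Alternatives were floors of 0.1, 1 and 5 FPKM, pseudocounts, centring, TPM and upper quartile scaling, status OK only and cutoffs of -1 and 1. Python 3.11.15, numpy 2.4.6, pandas 2.3.3, scipy 1.17.1 and matplotlib 3.10.9 were used.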

Additional observations from a re-analysis of the deposited data

How the results depend on the processing

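The floors, the status setting and the other cutoffs leave a retained ratio unchanged, and a pseudocount cannot change its sign. No reversal was therefore possible under these settings, and the alternatives with a pseudocount of 0.5 give the same ratios. The counts that follow are thus a description and not a check of the ratios. Of 423 log2 ratios of single guidance genes under 12 alternatives, 408 kept their side of the cutoff. A further 11 moved inside it, 4 moved outside it and 0 reversed. The 8 genes concerned were Efna1, Efna5, Efnb2, Efnb3, Epha1, Plxna4, Sema4g and Slit1, of which Slit1 was at -0.78 with a pseudocount of 0.5 and at -0.58 with 1, and Efnb2 at -0.87 after centring and -0.94 after upper quartile scaling. The counts moved from 9 higher and 11 lower to 4 higher and 3 lower with a floor of 5 FPKM (18 genes), and to 14 higher and 20 lower with a pseudocount of 0.5 and either a floor of 0.5 FPKM in 1 sample (52 genes) or no floor. The median of 0.10 became -0.013 with a floor of 0.1 FPKM, 0.30 with 1 FPKM, -0.082 with the floor in 1 sample and 0.25 on the TPM scale, so its sign depended on these settings. TPM scaling shifted the median of all genes to 0.18 and gave 11 higher and 11 lower members, and upper quartile scaling shifted it to -0.08 and gave 8 and 12. The share of higher among all members past the cutoff was 45.0% on the deposited scale, 57.1% with the 5 FPKM floor, 50.0% on the TPM scale, 40.0% after upper quartile scaling and 38.9% with cutoffs of -1 and 1, beside 51.8%, 55.2%, 59.1%, 47.4% and 51.7% for all genes under the same settings in that order. No paired analysis was possible because each genotype has 1 sample, and no sample could be left out. The spread between embryos is therefore unknown.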
